A study of Zea mays with 11 samples.

Results

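The regions described here are the anti-PAM1 RIP peaks that lie in the outer parts of the maize chromosomes, within the first 25% or the last 25% of the length. A peak was taken as outer when its midpoint, divided by the length of its chromosome in the B73 v4 assembly, was under 0.25 or over 0.75. This gave 457 of the 711 peaks in the list. Of the rest, 245 lay in the middle of the chromosomes, 6 on contigs with no chromosome and 3 on mitochondrial DNA. The first 25% is the start segment and the last 25% the end segment, with position counted from the start of the sequence. The choice used position alone and no measured value.

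The study took anthers at prophase I of meiosis from A344, a wild-type inbred maize line. RNA immunoprecipitation without crosslinking (native RIP), which recovers a protein with an antibody and sequences the RNA that comes along, was done with anti-PAM1 antibody in 3 samples and with IgG as the control in 2 samples. The 5 samples shared genotype, tissue and stage and differed in the antibody. The submitters combined them in a single list of peaks, so the list holds no value per sample and no depth, and no spread between samples could be computed for any peak. The study also sequenced RNA of A344 and *pam1* mutant anthers (3 samples each), which is not used here because those values carry no B73 v4 positions that would tie them to peaks. Whole anthers hold meiotic cells and the somatic layers around them, so more cells with an RNA and more RNA per cell cannot be told apart in these values. The tissue label was not checked against marker genes, since the list names no gene. Positions are on the genome of B73, while the RNA came from A344. RNA of sequences that B73 lacks is not represented.

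PAM1 (plural abnormalities of meiosis) carries an RNA recognition motif, a small domain that binds single-stranded RNA. The study links PAM1 to the chromosome axis, the protein core along which meiotic chromosomes fold, and to CCR4-NOT, the main enzyme complex that shortens the poly(A) tails of messenger RNA. *pam1* plants are known for a failure to gather chromosome ends into the meiotic bouquet, a cluster of telomeres on the nuclear envelope in prophase I. Maize genes and crossovers are concentrated towards the chromosome ends, while the regions around the centromeres are rich in retrotransposons. A RIP peak marks the place in the genome whose RNA was recovered. It does not show that the protein sat on the chromosome there.

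Peaks were denser in the outer segments than in the middle of the chromosomes. The outer segments make up 50% of the length of chromosomes 1 to 10 by construction and held 65.1% of the 702 peaks on them (exact Clopper-Pearson 95% interval 61.4% to 68.6%, which covers counting error only and takes peaks as separate). This came to 4.34 peaks per 10 Mb in the outer segments and 2.33 in the middle, a ratio of 1.87. The number of outer peaks was above the number of middle peaks on 10 of 10 chromosomes. The outer share ran from 56.5% on chromosome 6 to 78.5% on chromosome 7. Outer density was 3.97 to 5.59 peaks per 10 Mb over the chromosomes and middle density was 1.54 to 3.31, so the ranges did not overlap. The comparison is with sequence length alone. No share of genes or of expressed RNA in the outer segments was available to set beside it. Whether the difference follows the density of genes or of transcribed RNA was therefore not tested. No test was run on this difference or on any other below. The list gives a single set of peaks from combined samples, and peaks are not replicates of an antibody.

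**Figure D1:**
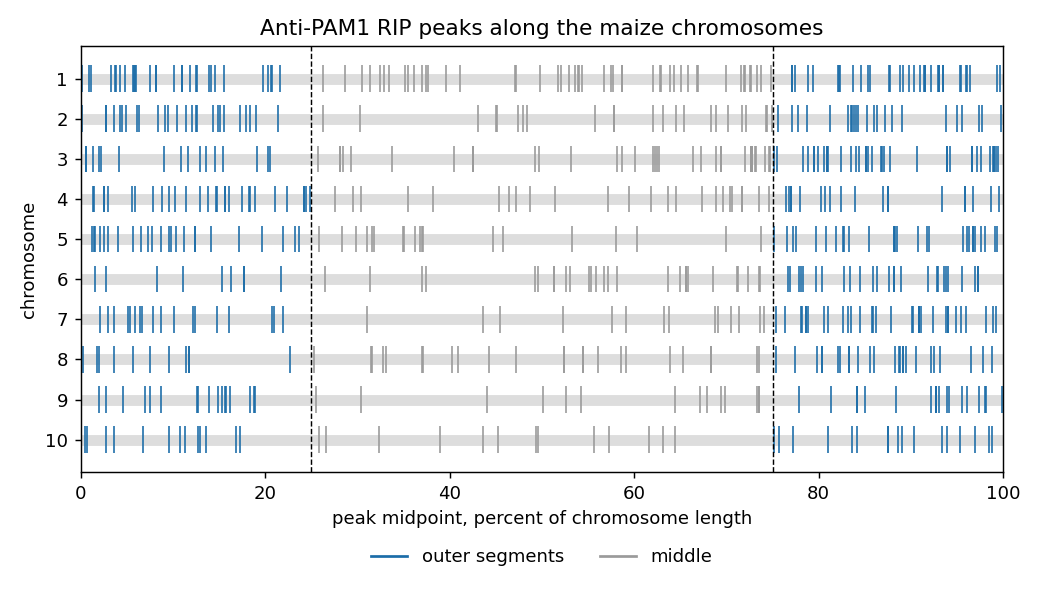
Position of each peak midpoint as a percent of its chromosome's length (x axis) on chromosomes 1 to 10 (y axis), with outer peaks in blue, middle peaks in grey and dashed lines at 25% and 75%. The 457 blue marks are crowded towards the ends, with sparse start segments on chromosomes 6 and 8, and grey marks thin out most between 25% and 50%.

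Of the outer peaks, 194 lay in start segments and 263 in end segments. Density was 3.68 peaks per 10 Mb in the start segments and 4.99 in the end segments. The end segment held more peaks than the start segment on 8 chromosomes, and chromosomes 2 and 4 were the exceptions. Chromosome 4 had 30 peaks in its start segment and 19 in its end segment, and chromosome 2 had 26 and 23. The other way, chromosome 6 had 9 peaks in the start segment and 26 in the end segment. On chromosome 3 the numbers were 16 and 37, and on chromosome 8 they were 11 and 25. These 3 start segments were less dense than the middle of the same chromosome: 2.72 against 3.31 peaks per 10 Mb on chromosome 3, 2.07 against 3.10 on chromosome 6 and 2.43 against 2.65 on chromosome 8. The excess of outer peaks on these chromosomes thus came from the end segment. The densest segment of all was the end segment of chromosome 7, with 33 peaks at 7.24 per 10 Mb, beside a middle with 14 peaks at 1.54 per 10 Mb. On chromosome 1 the start and end segments held 30 and 35 peaks, on chromosome 5 they held 24 and 28, on chromosome 9 they held 17 and 20, and on chromosome 10 they held 13 and 17.

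**Figure D2:**
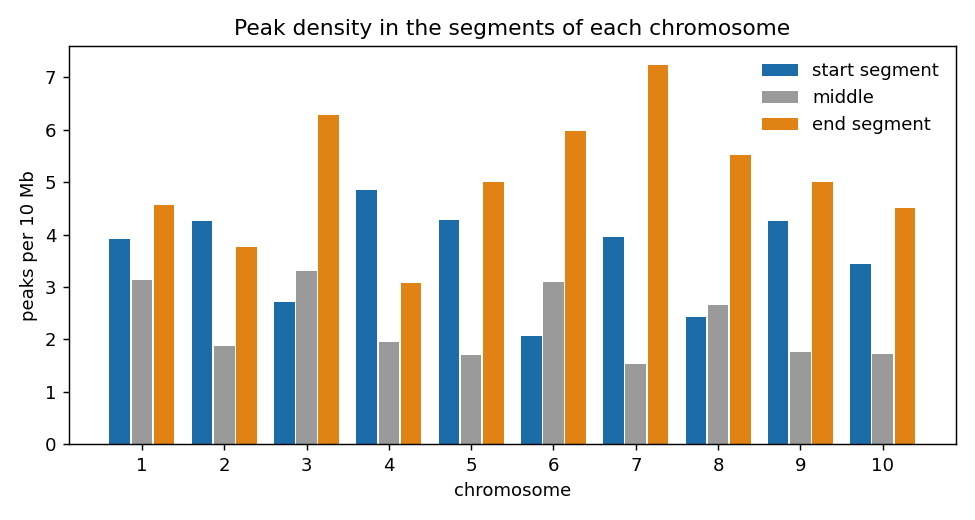
Peaks per 10 Mb (y axis) in the start segment, the middle and the end segment of each chromosome (x axis), as bars. The start segment lies below the middle on chromosomes 3, 6 and 8, and the end segment lies above the middle on all 10 chromosomes.

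The change in density along the chromosome did not fall at the boundaries used. In the start segments, 173 of 194 peaks (89.2%) lay within the first 20% of the length, and the strip from 20% to 25% held 21 peaks at 1.99 per 10 Mb, close to the 1.71 per 10 Mb of the strip just beyond the boundary. At the other side, the strip from 75% to 80% held 46 peaks at 4.37 per 10 Mb, and the middle strip from 70% to 75% held 49 at 4.65 per 10 Mb. Of those 49 peaks, 11 lay in a single 5 Mb window of chromosome 3, most of them in tight groups of 4 and 3 peaks. From 80% to the end, 4 strips of 5% held 52 to 59 peaks each, and the last strip was the densest of all 20, at 5.60 per 10 Mb. The outermost strip at the start held 50 peaks at 4.75 per 10 Mb. The lowest strip of all was from 40% to 45%, with 13 peaks. A dip in density thus ran from about 20% to 70% of the length, off centre towards the start. Every chromosome had at least 3 peaks in the first 10% of its length and at least 6 in the last 10%, and over all chromosomes these strips held 91 and 111.

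**Figure D3:**
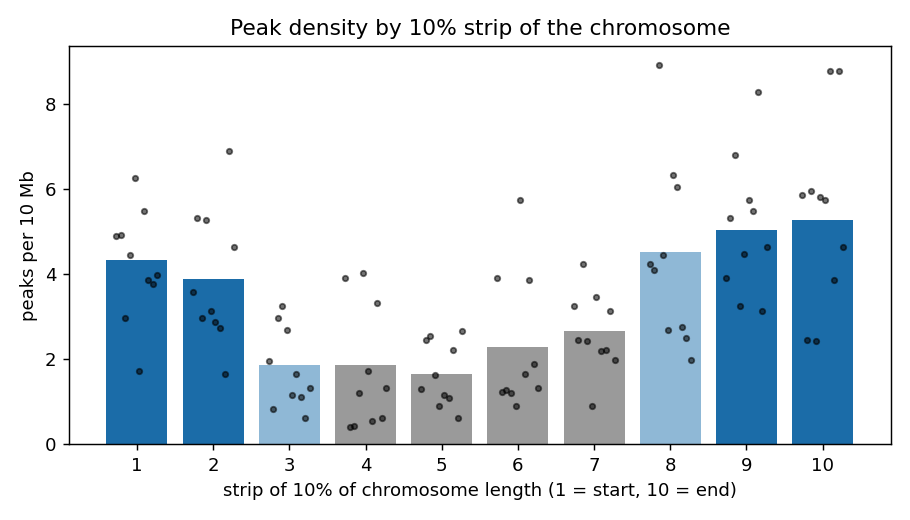
Peaks per 10 Mb (y axis) by strip of 10% of chromosome length (x axis). Bars give all 10 chromosomes together (dark blue for outer strips, light blue for strips that a boundary crosses, grey for middle strips) and points give single chromosomes; density falls from 4.32 in strip 1 to 1.66 in strip 5 and rises to 5.27 in strip 10.

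Every chromosome end had a peak within 5 Mb. The outermost peak lay 0.231 to 4.71 Mb from the end over the 20 ends, with a median of 1.42 Mb, and 8 ends had a peak within 1 Mb. The nearest peak to an end was on chromosome 4 at 230997 to 231166 (fold enrichment 3.87, −log10 q 2.89). The next were on chromosome 9 at 159507470 to 159507639, 262143 bp from the end (fold 3.94, −log10 q 3.88), on chromosome 1 at 420284 to 420453 (fold 2.96, −log10 q 2.12) and on chromosome 8 at 426280 to 426457 (fold 4.93, −log10 q 5.82). Their values lie in the range of ordinary outer peaks. The end with the longest stretch free of peaks was that of chromosome 6, at 4.71 Mb. Only 99 outer peaks (21.7%) lay within 10 Mb of an end, and the median distance of an outer peak to its end was 23.9 Mb. Fold enrichment did not follow this distance among outer peaks (Spearman's rho −0.0027 over 457 peaks, a description across peaks that share the same samples).

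Nearest to the boundaries, the last peak inside 25% was on chromosome 4 at 61380613 to 61380782, at 24.9% of the length (fold 3.91, −log10 q 3.48), and the first outside was on chromosome 8 at 45790177 to 45790346, at 25.3% (fold 3.94, −log10 q 3.88). At 75%, the nearest inside was on chromosome 5 at 168254768 to 168255019, at 75.1% (fold 3.57, −log10 q 1.5), and the nearest outside was on chromosome 2 at 183146029 to 183146198, at 74.9% (fold 2.96, −log10 q 2.12). Inside and outside peaks had like values.

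In strength the outer and the middle peaks had the same medians. Fold enrichment is the submitters' linear ratio of antibody to control signal at a peak, and −log10 q is the strength of the call after correction for the number of places tested. The median fold enrichment was 3.94 in both sets, with quartiles of 3.91 and 4.93 in the outer segments and 3.87 and 4.89 in the middle. The median −log10 q was 3.88 in both, with quartiles of 3.21 and 5.22 in the outer segments and 2.89 and 4.48 in the middle. Outer values ran from 2.54 to 9.69 in fold and from 1.36 to 27.9 in −log10 q. The equal medians are those of the most common pair of values in the list. When peaks with that pair were left out, the median fold was 4.81 over 331 outer peaks (order-statistic 95% interval 4.502 to 4.89) and 3.91 over 172 middle peaks (3.91 to 4.81). The intervals overlap.

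The shares of strong peaks in the outer segments and the middle are given as a description, and their difference was not tested. A fold of at least 5.5 was reached by 84 of 457 outer peaks (18.4%, exact 95% interval 14.9% to 22.2%) and by 33 of 245 middle peaks (13.5%, 9.46% to 18.4%). A −log10 q of at least 3 was reached by 347 outer peaks (75.9%, 71.7% to 79.8%) and 177 middle peaks (72.2%, 66.2% to 77.8%). At least 5 was reached by 116 outer peaks (25.4%) and 54 middle peaks (22.0%). Against 65.1% of all chromosomal peaks, outer peaks made up 7 of the 10 and 13 of the 20 with the highest −log10 q. Of those with the highest fold they made up 8 of 10 and 15 of 20. Cuts at 50 and 100 fell within runs of peaks with equal values, so outer counts there were not fixed and are left out. By segment, a fold of at least 5.5 was reached by 16.5% of start-segment peaks (11.6% to 22.5%) and 19.8% of end-segment peaks (15.1% to 25.1%).

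The values fell on a limited number of steps. The 457 outer peaks had 92 different pairs of fold and −log10 q, of which 60 occurred once. The most common pair, fold 3.94 with −log10 q 3.88, belonged to 126 outer peaks (27.6%, exact 95% interval 23.5% to 31.9%), on all 10 chromosomes. In the middle it belonged to 73 (29.8%, 24.1% to 35.9%). It was followed among outer peaks by fold 3.91 with −log10 q 3.48 (44 peaks), fold 3.87 with 2.89 (42), fold 4.93 with 5.82 (36) and fold 2.96 with 2.12 (18). These 5 pairs covered 266 outer peaks (58.2%). Peaks with the same pair cannot be ranked against each other. The folds 2.96, 3.94, 4.93 and 5.92, each shared by several outer peaks, were evenly spaced. Whether such steps reflect small numbers of reads was not tested, as the list gives no read counts.

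**Figure D4:**
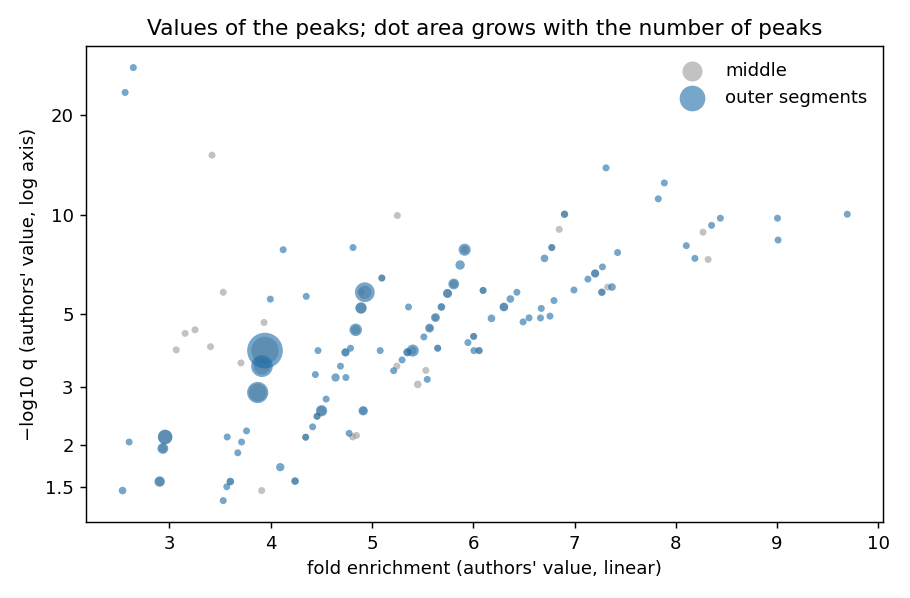
Fold enrichment (x axis, linear) against −log10 q (y axis, log axis) for outer (blue) and middle (grey) peaks, 1 dot per pair of values with an area that grows with the number of peaks. The largest dot is the pair at fold 3.94 and −log10 q 3.88, and 2 outer peaks stand alone at the upper left with −log10 q of 23.5 and 27.9 at a fold under 3.

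Fold and −log10 q rose together across outer peaks (Spearman's rho 0.80 over 457 peaks, as a description), and a pair of peaks stood far off this relation. Those on chromosome 9 at 20238247 to 20238435 and 20383652 to 20383825 had −log10 q of 27.9 and 23.5, the highest on the chromosomes, at folds of 2.64 and 2.56. They lie 145216 bp apart in the start segment, at 12.7% and 12.8% of the length. In all, 38 outer peaks had a fold under 3, with a median −log10 q of 2.12, and the other 36 of them reached no more than 2.12. How much signal lay under these peaks in the antibody or the IgG samples is not in the list. The middle had a like case on chromosome 3, at 62.3% of the length, with −log10 q 15.2 at a fold of 3.42.

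The other outer peaks among the 10 with the highest −log10 q had folds of 6.90 or more. Chromosome 9 at 148186620 to 148186929 had −log10 q 13.9 and fold 7.31. The peak on chromosome 10 from 116550262 to 116550479 reached 12.5 with a fold of 7.89, and that on chromosome 3 from 190658628 to 190658872 reached 11.2 with a fold of 7.83. These 3 lie in end segments, at 92.8%, 77.2% and 80.9% of the length. On chromosome 2, a start-segment peak at 29538322 to 29538514 had the highest fold of all chromosomal peaks, 9.69, with −log10 q 10.04. Another at 44954038 to 44954465 had the same −log10 q with fold 6.90. The list of 10 was completed by peaks on chromosomes 8, 3 and 10. The first, from 168620500 to 168620674, had −log10 q 9.76 and fold 9.004. The second, from 177202153 to 177202330, had the same −log10 q and fold 8.44. The third, from 143879863 to 143880084, had −log10 q 9.29 and fold 8.35. By fold, the peak on chromosome 6 at 153439748 to 153439966 joined them, at 9.01 with −log10 q 8.38. Of these 11 peaks, 4 lay in start segments and 7 in end segments. In all, 19 outer peaks had a fold of at least 7, with −log10 q from 5.82 up and a median of 7.68.

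Most peaks of both sets had the smallest width found on the chromosomes, 170 bp. Among outer peaks the width was 170 bp in 292 of 457 (63.9%) and over 200 bp in 85 (18.6%, exact 95% interval 15.1% to 22.5%). In the middle these shares were 64.1% and 22.0% (17.0% to 27.8%). Whether 170 bp was a lower limit set in peak calling is not stated, so differences in width below it cannot be seen. The 5 widest outer peaks were on chromosome 4 at 236692700 to 236693158 (459 bp, fold 5.81, −log10 q 6.17), chromosome 2 at 44954038 to 44954465 (428 bp, fold 6.90), chromosome 6 at 159805111 to 159805527 (417 bp, fold 5.40, −log10 q 3.88), chromosome 7 at 160256896 to 160257301 (406 bp, fold 4.91, −log10 q 2.55) and chromosome 1 at 47748717 to 47749116 (400 bp, fold 5.87, −log10 q 7.04). Wider peaks tended to be stronger: a fold of at least 5.5 was reached by 35 of 85 outer peaks over 200 bp (41.2%) and by 21 of 292 at 170 bp (7.19%). The highest fold at 170 bp was 7.20. Summits, the points of highest signal, lay in the central 50% of the peak in 357 outer peaks (78.1%). In the wide peaks on chromosomes 6 and 7 just named the summit lay near the far edge, 354 and 350 bp from the start.

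Of the outer peaks, 75% lay at least 0.293 Mb from any other peak. The median gap to the nearest peak was 0.737 Mb (quartiles 0.293 and 1.61 Mb), and 183 outer peaks (40.0%) had no other peak within 1 Mb. In the middle the median gap was 1.11 Mb and 53.5% had none within 1 Mb, with the lower density there. Within 100000 bp of another peak lay 18 start-segment peaks (9.28%, exact 95% interval 5.59% to 14.3%) and 50 end-segment peaks (19.01%, 14.5% to 24.3%). Start-segment density was also the lower of the pair.

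A small fraction was in tight groups. Within 5000 bp of another peak lay 37 outer peaks (8.10%, 5.76% to 10.99%), about the same share as in the middle (20 of 245, 8.16%, 5.06% to 12.3%). The outer ones formed 18 groups, 17 pairs and 1 group of 3, with at least 1 group on each of the 10 chromosomes. The middle ones formed 8 groups, on 4 chromosomes. The outer groups spanned 448 to 3226 bp, with a median of 1087 bp. In 6 of the 18, all peaks had the same fold and −log10 q.

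The group of 3 lay on chromosome 9 at 148185789 to 148187427. Its outer members had fold 2.54 (−log10 q 1.46) and fold 4.12 (−log10 q 7.84), on either side of the peak at fold 7.31 and −log10 q 13.9 named above. The gaps between them were 570 and 322 bp. Among the pairs, that on chromosome 3 at 190657347 to 190658872 had folds of 7.20 and 7.83, and that on chromosome 6 at 153438876 to 153439966 had folds of 6.78 and 9.01. Both members were strong in these pairs. The pair on chromosome 5 at 27788252 to 27789034 had equal folds of 5.92, and the tightest, on chromosome 8 at 161548835 to 161549282, had a gap of 108 bp and folds of 3.94. Unequal pairs also occurred, as on chromosome 4 at 6223836 to 6224918, with folds of 2.60 and 4.81. Whether such peaks belong to 1 transcript could not be read from the list, which gives no strand and no gene.

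**Figure D5:**
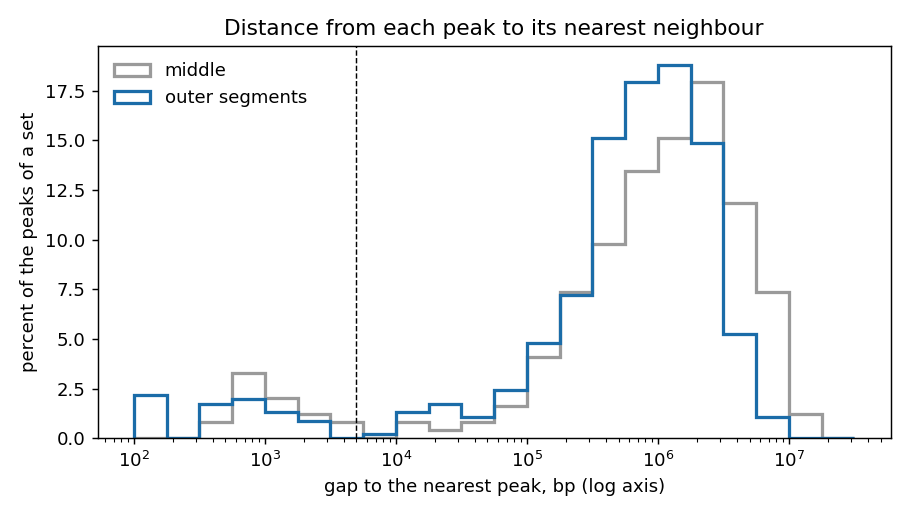
Gap from each peak to its nearest neighbour (x axis, bp, log axis) as percent of the peaks of each set (y axis), for outer (blue) and middle (grey) peaks, with a dashed line at 5000 bp. Both sets show a small group of close peaks to the left of the line, and the main mass of outer peaks lies at shorter gaps than that of middle peaks, with medians of 0.737 and 1.11 Mb.

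On a larger scale, outer peaks were scattered and not gathered in a few places. In windows of 5 Mb wholly inside the outer segments, the number of peaks was 0 to 7 with a median of 2, and 24 of 195 windows (12.3%) had none. In the middle the median was 1, and 74 of 201 windows (36.8%) had none. The fullest outer window, on chromosome 5 from 215000001 to 220000000, held 7 peaks with folds of 2.96 to 5.40, none of them among the strong ones above. It was followed by 4 windows of 6 peaks, a pair of them on chromosome 3 and the others on chromosomes 8 and 9. The fullest window of all was a middle one, with 11 peaks on chromosome 3 from 170000001 to 175000000, next to the 75% boundary. Tight groups made up most of it, with 4 peaks within 3361 bp and 3 others within 2914 bp. The longest stretch without a peak inside an outer segment was on chromosome 8 from 21239966 to 41087128, 19.8 Mb long. On chromosome 4 a stretch of 14.5 Mb in the end segment held none, and on chromosome 1 a stretch of 12.9 Mb in the start segment. The 9 peaks of the sparse start segment of chromosome 6 lay between 2752026 and 37856337, with the highest fold, 6.10, at the outermost.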

How the data were processed

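The 5 RIP samples (3 anti-PAM1, 2 IgG) were grouped by their titles. The submitters' processing notes list MACS2, Bowtie2 2.4.5, STAR and DESeq2 but no role for any of them. Full settings for peak calling are not given in the labels or headers. The name of the list carries short marks that read as a quality limit and a limit on the false discovery rate. What these marks applied to is not stated. Every peak had a −log10 q of 1.36 or more. Whether such limits acted differently on outer and middle peaks was not tested. The deposited list, in narrowPeak columns, gives per peak the authors' fold enrichment (a ratio), −log10 q, a summit and a score. The score equals 10 times −log10 q, cut to whole numbers, for 711 of 711 deposited peaks. Samples were combined, and depth is unknown. Contig names are those of B73 v4, so positions are read on it and counted from 1.

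Peaks were classed by midpoint, counted and measured with Python 3.11.15, numpy 2.4.6, pandas 2.3.3, scipy 1.17.1 and matplotlib 3.10.9. A gap is the number of bp between neighbouring peaks. Shares carry exact Clopper-Pearson 95% intervals and medians order-statistic intervals, both for counting error only. The class and gap steps were tested on simulated peaks. No test was run, since a combined list has no samples to compare. Named peaks were the 10 with the highest −log10 q, the 5 with the highest fold, the 5 widest, the 4 nearest an end, groups of 3 and those at the boundaries. Other pairs, 5 Mb windows, strips of 5% and limits on fold and width were chosen after the values were seen. The regions and lists were chosen with earlier results of these data known. No B73 v4 genome or annotation was used here, so sequences and genes under peaks are not given. The RNA-seq tables were not used. Alternatives moved the boundaries, used the summit for position, set stricter limits, joined close peaks, dropped the commonest values and left out each chromosome.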

Additional observations from a re-analysis of the deposited data

How the results depend on the processing

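The outer share of peaks was 55.6% with boundaries at 20% and 80% of the length and 74.6% at 30% and 70%, where the outer regions are by construction smaller and larger. The difference in median fold, outer minus middle, was 0 as reported, 0.18 with −log10 q of at least 3, 0.34 with a fold of at least the list's median and 0.90 without the commonest pair of values. Without that pair the difference in median −log10 q was 0.35, that in median width −1 bp, and 66.8% of outer peaks reached −log10 q 3. The pair has −log10 q above that limit, so dropping it lowers the share by construction. Counting close peaks as 1 leaves a share of 0 within 5000 bp, also by construction. Leaving out each chromosome in turn gave an outer share of 63.7% to 66.6% and a ratio of outer to middle density of 1.76 to 1.99. Of 79 alternative values, 70 stayed within the counting interval of the reported value (for the number of outer peaks, within 1.5 times) and 9 moved. For differences in medians that interval came from the outer peaks alone and had no width, because of tied values. Staying within it meant only that the difference was again 0. Values without a chromosome share most peaks with the reported value, so the 70 are not separate checks. Reversal was counted as a change of sign. Counts, shares, ratios and differences reported as 0 could not show it, so its count of 0 carries no information. The ratio of outer to middle density ran from 1.76 to 2.08 over all alternatives. No paired analysis was possible because the samples were combined in a single list and no result comes from a test. Leaving out a RIP sample was not possible for the same reason, and precision is limited by the unknown depth.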
